A study of Mus musculus with 2 samples.

Results

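The 10 genes described here encode transcription factors, and a chromatin-associated protein, that hold the naive pluripotent state or mark its exit: Pou5f1, Nanog, Sall4, Esrrb, Zfp42, Tfcp2l1, Prdm14, Nr0b1, Utf1 and Pou3f1. They were taken by symbol from the 32285 genes of the count matrices, and all 10 were found in both matrices. Single-cell RNA libraries were made with 3′ chemistry, which counts 1 unique molecular identifier (UMI) per captured transcript end, from gastruloids of mouse embryonic stem cells. Gastruloids are stem cell aggregates that begin to pattern in culture much as the early embryo does. Each aggregate started from about 300 cells in serum-free N2B27 medium, received 3 µM of the GSK3 inhibitor CHIR at day 2, which activates Wnt signalling, and was collected 12 h later, at day 2.5. One library came from pooled aggregates of R1 wild-type cells and the other from pooled aggregates of cells labelled as an Sp5/8 double knockout, and both received CHIR. With 1 library per genotype there was no replicate: intervals below are 95% counting intervals, and no difference between libraries has a test. Whether the double-knockout line was 1 clone is not given in the sources used here.

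After the filters 8707 cells (97157331 UMIs) and 10587 cells (97644169 UMIs) remained in the libraries labelled wild type and double knockout, and pairs of values below are in that order. Median depth was 10571 and 8637 UMIs per cell, with 3275 and 2884 genes detected, and 27 cell barcodes occurred in both libraries. The labels state 9238 and 11190 captured cells, with medians of 5333 and 5398 genes, from a count made with Cell Ranger, and those denominators differ from the ones used here. Sp5 and Sp8 went against the genotype labels: Sp5 was at 109.1 and 478.7 UMIs and Sp8 at 20.8 and 40.1 UMIs when each library was scaled to 1000000. A 3′ count outside a deleted or mutated part can persist, and what was deleted is not stated, so these counts check nothing. Whether the labels are exchanged was not tested, and if they were, each difference between the libraries below would change its sign. The libraries are therefore named by their labels, and no direction below stands for loss of Sp5 and Sp8.

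Naive pluripotency is the state of the pre-implantation epiblast, held in culture by LIF and Wnt signals through a mutually supporting set of factors. As cells leave it, the naive factors are lost first, formative and post-implantation genes are switched on, and Pou5f1 and Sall4 continue to be expressed until lineages separate. Pou5f1 (OCT4) is the POU factor that pairs with SOX2 on composite DNA elements, Nanog is a homeodomain factor of the same core, and Sall4 is a zinc-finger partner of both. Esrrb, an orphan nuclear receptor, Tfcp2l1, a CP2-family factor, Prdm14, which restrains FGF signalling and DNA methylation, Nr0b1 (DAX1), an atypical nuclear receptor, and Zfp42 (REX1), a zinc-finger protein used as a reporter of naive cells, belong to the naive set. Utf1 is a chromatin-associated coactivator of embryonic stem cells that the epiblast also expresses, and Pou3f1 (OCT6) is a POU factor that rises in the post-implantation epiblast and in early neural cells.

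Zfp42 (ENSMUSG00000051176) lies at chr8:43295063-43306980 on the minus strand in the GENCODE M21 annotation of GRCm38, Utf1 (ENSMUSG00000047751) at chr7:139943789-139945112 on the plus strand, Esrrb (ENSMUSG00000021255) at chr12:86361117-86521628 on the plus strand, Pou3f1 (ENSMUSG00000090125) at chr4:124656807-124660655 on the plus strand and Pou5f1 (ENSMUSG00000024406) at chr17:35506018-35510772 on the plus strand. Annotated antisense genes overlap Pou5f1, Sall4, Tfcp2l1 and Pou3f1, and processed copies of Pou5f1 and Nanog exist elsewhere in the genome; how shared reads were counted is not given in the sources used here.

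Promoter windows of the 250 bases before a RefSeq transcription start (build GRCm38.p6) were matched for 7 of the 10 members, in 10 windows. Those of Zfp42 and Utf1, which were high together in the cells described below, and of Nanog, which was not, are shown with the letters of 3 motifs in capitals. The motifs were the octamer core ATGCAAA or its reverse TTTGCAT, bound by POU factors, the SOX core CATTGT or its reverse ACAATG, and the GC box GGGCGG or its reverse CCGCCC, to which SP-family factors bind.
Zfp42, chr8:43307010-43307259, minus strand: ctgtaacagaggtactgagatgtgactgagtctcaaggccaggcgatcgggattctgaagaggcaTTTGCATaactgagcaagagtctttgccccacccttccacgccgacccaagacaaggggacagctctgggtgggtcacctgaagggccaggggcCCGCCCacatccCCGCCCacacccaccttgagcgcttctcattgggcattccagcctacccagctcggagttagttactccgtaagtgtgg
Utf1, chr7:139943606-139943855, plus strand: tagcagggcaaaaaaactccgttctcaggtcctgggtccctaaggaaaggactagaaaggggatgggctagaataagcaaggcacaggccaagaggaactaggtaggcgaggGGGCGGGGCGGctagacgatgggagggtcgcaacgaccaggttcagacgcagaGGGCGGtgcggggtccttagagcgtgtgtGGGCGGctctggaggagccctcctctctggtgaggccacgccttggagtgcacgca
Nanog, chr6:122707239-122707488, plus strand: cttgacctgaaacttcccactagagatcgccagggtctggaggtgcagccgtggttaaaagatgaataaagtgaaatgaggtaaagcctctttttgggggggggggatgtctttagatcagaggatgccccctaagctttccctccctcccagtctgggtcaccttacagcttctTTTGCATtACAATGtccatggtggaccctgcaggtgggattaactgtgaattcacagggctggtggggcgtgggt
Zfp42 held 1 octamer core, beginning 185 bases before the start, and 2 GC boxes. Utf1 held 4 GC boxes, of which 2 share a base, and no octamer or SOX core. In the window shown, Nanog held an octamer core and a SOX core separated by 1 base, 75 and 67 bases before the start. Of 32851 windows of this length, 4.13% held the octamer core, 10.7% the SOX core and 32.7% the GC box. Of the other matched members, Pou5f1 held 1 GC box in one window and 1 SOX core in the other, and neither Esrrb, Tfcp2l1 nor Nr0b1 held any of the 3 words. A match is a run of letters, not a measured binding site.

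The core factors were the most abundant members, and the 5 naive factors were the least abundant (the plot of levels by library). Levels are given as CPM, the UMIs of a gene scaled to a total of 1000000 UMIs in the library or cell class. These 3′ counts are not divided by gene length, so levels of different genes compare captured transcript ends only. Pou5f1 was at 656.2 (651.1 to 661.3) and 679.0 (673.8 to 684.2) CPM, Sall4 at 137.3 and 142.0, and Nanog at 116.2 and 128.8. Pou3f1 followed at 83.4 and 75.2 and Utf1 at 41.2 and 53.7. Counting intervals of neighbours in this order did not overlap within either library.

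The naive factors spanned a wide range. Zfp42 was at 17.3 and 17.6 CPM and Tfcp2l1 at 6.59 and 6.18. Nr0b1 had 76 and 74 UMIs in all cells of a library, which is 0.782 (0.616 to 0.979) and 0.758 CPM, and Esrrb had 58 and 55, which is 0.597 (0.453 to 0.772) and 0.563 CPM, so these 2 do not differ beyond counting error. Prdm14 had 1 UMI and 2 UMIs, below the level that 3 counts would give, and no ratio is given for it. In barcodes with 10 to 100 UMIs, taken here as free RNA, Pou5f1 was at 765.5 and 796.0 CPM, Zfp42 at 13.1 and 20.1, and Esrrb had no UMI in either library.

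**Figure D1:**
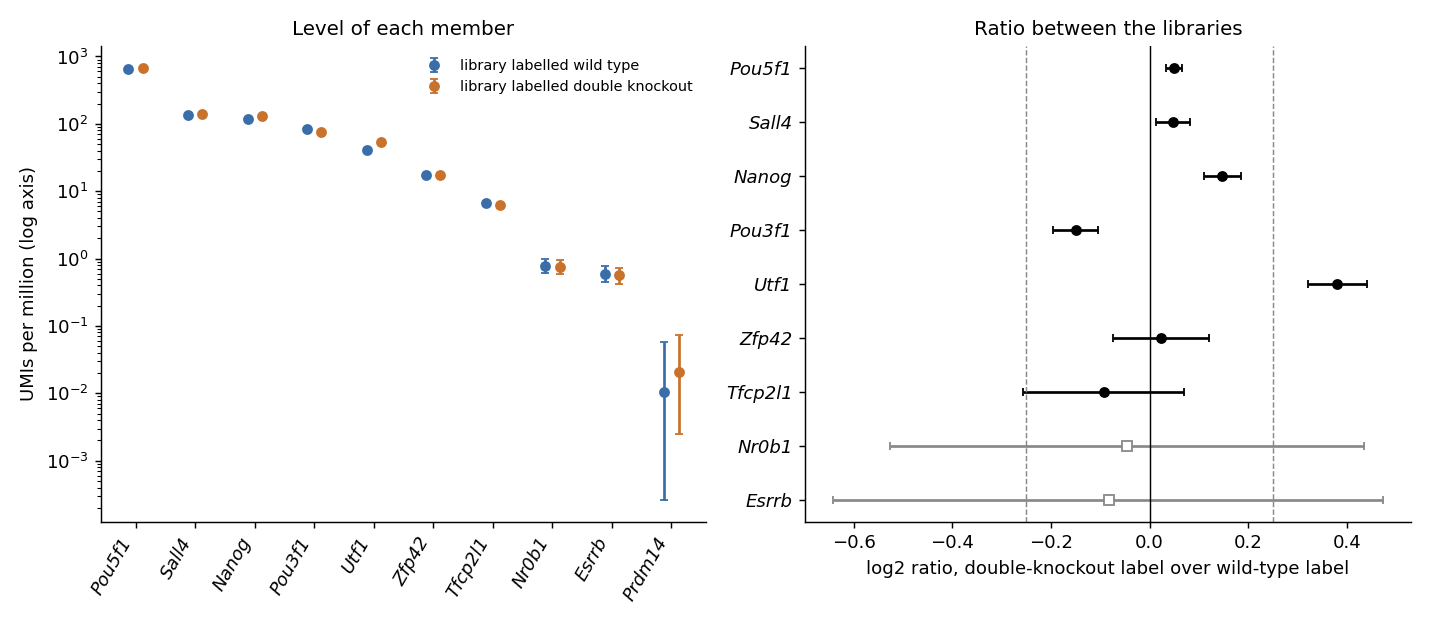
Left, CPM of each member in the 2 libraries on a log axis; right, log2 ratio of the library labelled double knockout over that labelled wild type. Bars are 95% counting intervals, dashed lines mark 0.25, open squares are members with a mean under 1 CPM, and Prdm14 is left out of the ratios; Utf1, at 0.38, is the member past the dashed line.

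Most cells held Pou5f1 and few held a naive factor. When each cell was thinned, that is reduced at random to 2500 UMIs so that depths match, 77.2% (76.3 to 78.1) and 78.9% of cells kept a Pou5f1 UMI, 28.0% and 28.2% a Sall4 UMI, and 23.7% and 27.0% a Nanog UMI. With all UMIs the Pou5f1 share was 96.8% and 96.9%. Pou3f1 was found in 17.3% and 15.7% of thinned cells and Utf1 in 9.36% and 11.8%. Zfp42 was found in 4.02% and 4.09% (13.5% and 12.9% with all UMIs), Tfcp2l1 in 1.80% and 1.44%, Esrrb in 0.207% and 0.113% and Nr0b1 in 0.195% and 0.151%. Prdm14 was found in 1 thinned cell of the first library and in 0 of 10587 of the second, which allows a share of cells with a UMI of up to 0.0283% (3 counts of the total). The labels name the cell type as embryonic stem cell. In these aggregates at day 2.5, each of the 5 naive factors had no UMI in most cells, Tfcp2l1 being found in 6.83% and 5.39% with all UMIs. Most cells also lacked a Utf1 UMI (found in 29.1% and 31.9%) and a Pou3f1 UMI (found in 48.6% and 40.9%). The study holds no library of naive cells to compare them with.

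As a background for these shares, 17 and 16 cells carried at least 3 of 8 extraembryonic endoderm markers, such as Gata6 and Sox17. Their median depth was 11951 and 7992 UMIs. After thinning, Pou5f1 was found in 2 and 5 of them, Sall4 in 3 and 4, Utf1 in 2 and 1, Zfp42 in 1 and 1, and Nanog and Pou3f1 in 0 and 0. The Pou5f1 share of all cells is above the upper limits of those groups, 36.4% and 58.7%. The Nanog shares of 23.7% and 27.0% are above their limits of 19.5% and 20.6%. The shares of Sall4, Pou3f1, Utf1, Zfp42, Tfcp2l1, Esrrb and Nr0b1 are below the upper limits for their own genes, so this number of cells does not set a background below them.

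By the variance of UMIs per cell over the mean, Zfp42 and Pou3f1 stood highest among the members. After thinning, the variance of UMIs per cell over the mean was 1.64 and 1.21 for Zfp42 and 1.35 and 1.34 for Pou3f1. The median over 7607 genes with at least 10 CPM was 1.01 and 1.01, and the 90th percentile was 1.06 and 1.05. Utf1 was at 1.19 and 1.18 and Pou5f1 at 1.18 and 1.14. Esrrb was at 0.998 and 0.999, although many of its UMIs lay in the few Zfp42-rich cells described below. The ratio therefore does not rank the rare members by how evenly they were spread. One cell held 24 Zfp42 UMIs in the first library and another held 23 in the second, against a mean below 1. Pou3f1 reached 26 and 21 UMIs in a cell.

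Pairs of members also met in cells at different rates. Zfp42 and Utf1 were found together in 56 and 65 thinned cells, against 32.8 and 50.9 if they had been independent, ratios of 1.71 and 1.28. Utf1 and Pou3f1 met 1.18 and 1.31 times as often as independence gives. Nanog and Pou3f1 met less often, 0.83 and 0.90 times, and so did Nanog and Utf1, 0.90 and 0.87 times. These ratios describe the cells of 2 libraries and have no test.

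Between the libraries 1 of the 7 members with a mean of at least 1 CPM was past a log2 ratio of 0.25, and that was Utf1, which was higher. Its level was 41.2 and 53.7 CPM, a log2 ratio of 0.38 (0.32 to 0.44). Of all 12406 genes past the same mean, 5.70% were higher by this much in the library labelled double knockout and 8.89% were lower. The standard deviation of the ratio over those genes was 0.20, and the Utf1 ratio stood at their 98.0th percentile. Pou5f1 and Sall4 differed by 0.05 each, Zfp42 by 0.02 (-0.07 to 0.12) and Tfcp2l1 by -0.09 (-0.26 to 0.07). Nanog was at 0.15 (0.11 to 0.18) and Pou3f1 at -0.15 (-0.20 to -0.10), which are inside the fold. The combinations of T, Eomes and Irx3, called after thinning, were also set to equal shares in both libraries. Nanog was then at 0.08 and Pou3f1 at -0.09. This does not equalise marker levels within a combination, as Eomes was at 52.6 and 98.2 CPM in cells with no marker called. For Esrrb and Nr0b1 the intervals, -0.64 to 0.47 and -0.53 to 0.44, allow a difference in either direction.

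The Utf1 ratio moved with the depth of the cells compared. It was 0.26 (-0.02 to 0.57) in cells of 2500 to 6000 UMIs, 0.22 (0.15 to 0.30) in cells of 6000 to 12000, and 0.57 (0.47 to 0.68) in deeper cells, so in the middle range it did not pass the fold. Over these ranges Utf1 was at 52.2, 45.1 and 36.5 CPM in the first library and at 62.9, 52.7 and 54.4 in the second. Pou3f1 was at -0.29 (-0.35 to -0.23) in the middle range, past the fold, and at 0.01 (-0.07 to 0.09) in deeper cells. The part of cell depth in these ratios was not tested.

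Utf1 was higher in the library labelled double knockout within each class of cells split by a lineage marker. The ratio was 0.45 (0.38 to 0.52) in cells with no UMI of T, Eomes or Irx3 after thinning. It was 0.27 (0.05 to 0.49) in T-positive cells, 0.27 (0.14 to 0.40) in Eomes-positive cells and 0.68 (0.27 to 1.09) in Irx3-positive cells. The classes were not alike in marker level between the libraries. With all UMIs, the cells with none held Eomes at 52.6 and 98.2 CPM and Irx3 at 14.4 and 6.92. Nanog was at 0.11 (0.06 to 0.16) in the cells with none of the 3, and its intervals held 0 in T-positive, Eomes-positive and Irx3-positive cells. Pou3f1 was at -0.11 in the cells with none and at 0.35 (0.10 to 0.58) in Irx3-positive cells.

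Other genes of the state were counted from lists. Of 15 measured genes of the LIF and naive circuit, 2 were higher and 4 lower past 0.25, with a median of -0.05, beside a median of -0.03 over all genes. Klf2, a Krüppel-like naive factor, was at 32.2 and 18.6 CPM (log2 -0.79), Gbx2, a homeobox target of LIF signalling, at 24.1 and 18.0 (-0.42), and Stat3, which carries the LIF signal, at 9.69 and 11.1 (0.19). Of 11 partners of the core factors 2 were higher and 2 lower, with a median of 0.04. Sox2, the partner of Pou5f1, was at 33.2 and 24.6 (-0.43), and L1td1, an RNA-binding protein of pluripotent cells, at 126.8 and 164.5 (0.38). Etv5, an ETS factor downstream of FGF signalling, was at 50.9 and 65.9 (0.37).

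Of 9 measured formative and primed genes 3 were higher and 1 lower, with a median of 0.08. Otx2, a homeobox factor of the formative state, was at 31.1 and 56.6 CPM (0.86), Fgf5, a ligand that marks the post-implantation epiblast, at 62.1 and 91.3 (0.56), and Sox3, a SOXB1 factor, at 49.6 and 29.3 (-0.76). Of 7 primitive streak genes listed, the 6 with a mean of at least 1 CPM, T and Eomes included, were higher, and Mesp1, under that mean, was lower at 1.35 and 0.369 (-1.86); Gsc, a homeobox factor of the organizer, was at 10.5 and 23.8, Eomes at 91.2 and 185.6 and Fgf8 at 92.6 and 153.3. Of 3 measured germ cell genes 1 was higher and 0 lower, with a median of 0.19; Tfap2c was at 1.78 and 2.73 (0.62) and Kit, a receptor, at 14.7 and 15.3 (0.05). Of the 5 stress genes 3 were higher and none lower; Chac1 was at 15.0 and 25.5 and Trib3 at 8.82 and 13.7. The trophoblast list was 0 higher and 3 lower of 3, at summed levels of 5.43 and 2.79, and the neural list 0 higher and 2 lower of 3, at 8.80 and 5.33. The part of these genes in the Utf1 ratio was not tested.

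Cells were next split by 3 lineage markers called after thinning: T (Brachyury) and Eomes, T-box factors of the primitive streak and mesendoderm, and Irx3, an Iroquois homeobox factor of early neural tissue. T-positive cells numbered 688 and 1114, Eomes-positive cells 1536 and 3333 and Irx3-positive cells 416 and 201, against 6331 and 6471 with none. Those with none include cells in which a low level of a marker was missed. With all UMIs, the cells with none held T at 23.8 and 26.7 CPM, Eomes at 52.6 and 98.2 and Irx3 at 14.4 and 6.92. In free RNA Irx3 was at 27.0 and 10.6 CPM, against 19.75 and 8.17 in cells. T was at 25.3 and 26.75 in free RNA, against 38.8 and 50.7 in cells, and Eomes at 49.5 and 101.1, against 91.2 and 185.6. The part of free RNA in the marker calls was not tested. Nanog was highest in the T-positive and Eomes-positive cells and lowest in the Irx3-positive cells. Nanog was at 110.5 and 119.2 CPM in cells with none, 137.9 and 145.2 in T-positive, 139.8 and 146.2 in Eomes-positive and 79.3 and 86.7 in Irx3-positive cells. Against cells with none these are log2 differences of 0.32 (0.23 to 0.41) and 0.28 (0.20 to 0.36), 0.34 and 0.29, and -0.48 (-0.63 to -0.33) and -0.45 (-0.70 to -0.23). With no thinning the Irx3 difference was -0.20 and 0.01, and in cells positive for Irx3 alone it was -0.53 and -0.69.

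Pou5f1 was likewise higher in T-positive and Eomes-positive cells and lower in Irx3-positive cells, over a narrower range. It was at 637.1 and 656.7 CPM in cells with none, 760.8 and 730.1 in T-positive, 727.7 and 716.6 in Eomes-positive and 548.5 and 583.0 in Irx3-positive cells, log2 differences of 0.26 and 0.15, 0.19 and 0.13, and -0.22 and -0.17. With no thinning the Irx3 difference was -0.02 and -0.01, so the lower Pou5f1 level in Irx3-positive cells was not seen with that setting. Sall4 ran the other way in Irx3-positive cells, at 164.3 and 190.8 against 134.8 and 139.9 (0.29 and 0.45), and was near the reference in T-positive cells (-0.05 and -0.07). With the markers called this way, none of the 3 core factors passed 0.5 in both libraries.

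**Figure D2:**
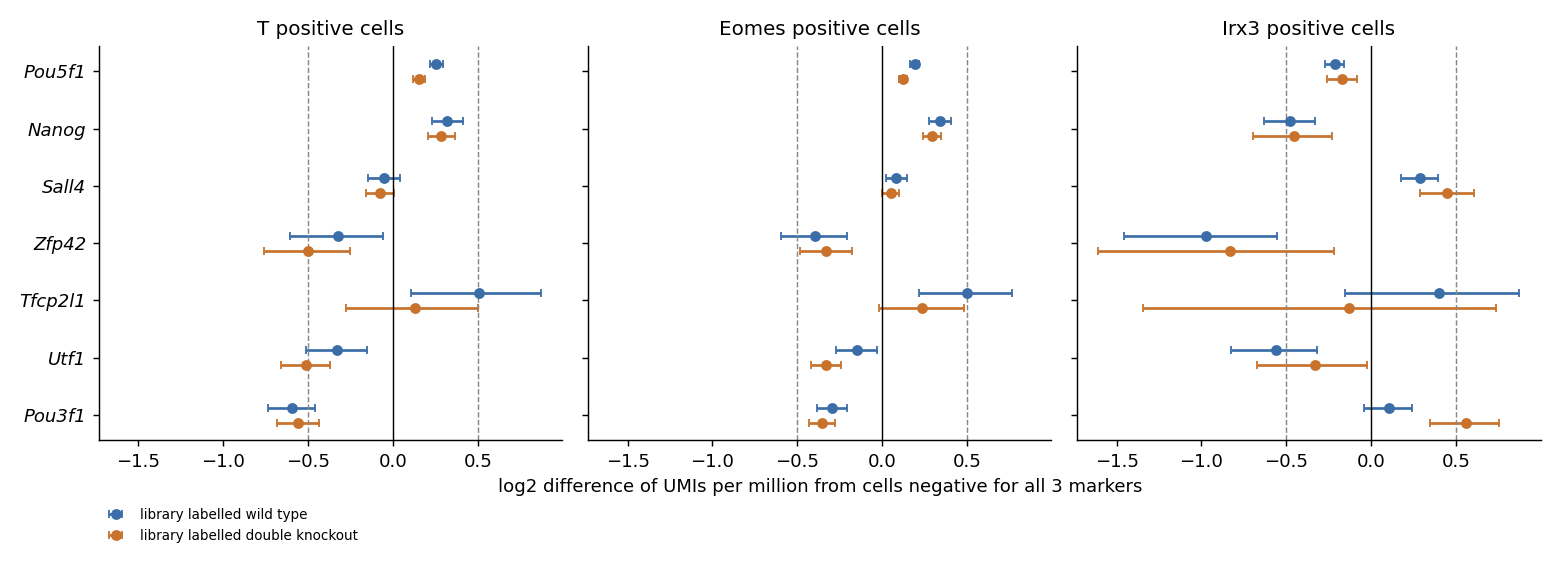
Log2 difference of CPM in T-positive, Eomes-positive or Irx3-positive cells, for the 7 members with a mean of at least 1 CPM. The reference is cells with no UMI of the 3 markers after thinning. Points are libraries, bars 95% counting intervals and dashed lines 0.5; Nanog lies to the right of 0 in T-positive and Eomes-positive cells and to the left in Irx3-positive cells.

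In T-positive cells Pou3f1 was the 1 member of 7 lower by 0.5 in both libraries, and none was higher, where 1.05% of 12403 genes were lower and 0.508% higher. Its level was 58.0 and 55.3 CPM against 87.8 and 81.6, differences of -0.60 (-0.74 to -0.46) and -0.56 (-0.68 to -0.44). Cells positive for T alone gave -0.63 and -0.39, so the second library did not pass there, and a minimum of 2 T UMIs gave -0.86 and -0.89. In Eomes-positive cells no member passed 0.5 in both libraries, where 0.306% of genes were higher and 0.806% lower, and Pou3f1 was at -0.30 and -0.35. In Irx3-positive cells Zfp42 was the 1 member lower and none was higher, where 1.37% of genes were lower and 1.79% higher. Zfp42 was there at 9.45 (44 UMIs) and 10.6 (19 UMIs) CPM against 18.7 and 19.4, differences of -0.97 (-1.46 to -0.55) and -0.83 (-1.61 to -0.22).

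Utf1 was lower than in cells with none under each marker, at -0.33 and -0.51 in T-positive, -0.15 and -0.33 in Eomes-positive, and -0.56 and -0.33 in Irx3-positive cells. Zfp42 was lower too, at -0.32 and -0.50 in T-positive and -0.40 and -0.33 in Eomes-positive cells. Tfcp2l1 was at 0.51 and 0.13 in T-positive and 0.50 and 0.24 in Eomes-positive cells, with an interval that held 0 in the second library both times. Pou3f1 in Irx3-positive cells was at 0.10 (-0.04 to 0.24) and 0.56 (0.35 to 0.75), at -0.04 and 0.05 with no thinning, and at 0.05 and 0.26 with a minimum of 2 Irx3 UMIs. Esrrb had 3 and 2 UMIs in T-positive, 4 and 11 in Eomes-positive, and 2 and 0 in Irx3-positive cells, too few to give a level for each.

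Set directly against each other, cells positive for Irx3 alone (364 and 149) and for T alone (463 and 625) parted on Nanog and Pou3f1. Nanog was at 76.3 against 140.7 CPM in the first library and 73.5 against 140.4 in the second, differences of -0.88 (-1.08 to -0.69) and -0.93 (-1.25 to -0.63). Pou3f1 was at 97.0 against 56.6 and 127.0 against 62.2, differences of 0.78 (0.56 to 1.00) and 1.03 (0.76 to 1.29). Of the 6 members with at least 10 CPM, Pou3f1 was thus 1 higher and Nanog 1 lower past 0.5 in both libraries, where 1.47% of 7604 genes were higher and 1.16% lower. Pou5f1 was at -0.48 and -0.33 and Sall4 at 0.32 and 0.46.

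A small group of cells carried several other naive genes. Markers were Klf4, Klf5 and Tbx3 (naive transcription factors), Nr5a2 (a nuclear receptor), Dppa3 (a maternal and naive-state factor) and Tdh (threonine dehydrogenase of stem cell metabolism), and 98 and 121 cells, 1.13% and 1.14%, held at least 2 of them after thinning. Tdh was among them in 92 and 118 cells. Zfp42 was at 130.7 and 86.2 CPM there against 13.4 and 15.4 in cells with none, differences of 3.29 (3.01 to 3.54) and 2.50 (2.18 to 2.79). Utf1 was at 85.5 and 107.1 against 37.2 and 49.1 (1.21 and 1.13), and Tfcp2l1 at 19.2 and 14.8 against 6.48 and 6.15 (1.60 and 1.31). These were the 3 of 7 members higher by 0.5 in both libraries, and none was lower, where 5.92% of 12401 genes were higher and 2.36% lower. These values depend on the number of markers asked for. With at least 1 marker the differences were 1.16 and 0.71 for Zfp42, 0.55 and 0.50 for Utf1 and 0.10 and 0.03 for Tfcp2l1, and in the 4 cells of each library with at least 3 markers Zfp42 was at 6.28 and 4.37, from 40 and 8 UMIs in 2 cells each.

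Esrrb and Nr0b1, under the mean used for that count, had 7 and 5 UMIs and 7 and 3 UMIs in those cells. For Esrrb that was 6.73 and 4.36 CPM against 0.404 and 0.385 (log2 4.13, 2.63 to 5.27, and 3.61, 1.77 to 4.88). Pou5f1 was at 620.6 and 658.5 against 649.5 and 671.2, Sall4 at 134.5 and 145.5 against 136.5 and 142.0, and Pou3f1 at 88.4 and 69.7 against 81.9 and 74.1, with intervals of the difference that held 0 in both libraries. Nanog was at 137.4 and 109.8 against 115.6 and 129.5, differences of opposite sign (0.25 and -0.23). Markers of extraembryonic endoderm moved with this class. The 8 genes summed to 81.7 and 27.0 CPM there, against 13.7 and 15.3 in cells called negative for T, Eomes and Irx3. In this class 5 and 2 of the cells carried at least 3 of them. Without cells carrying at least 3 of those markers the Zfp42 difference was 3.33 and 2.50 and that of Utf1 1.27 and 1.15.

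A tighter group was found by Zfp42 itself. Cells with at least 5 Zfp42 UMIs numbered 29 and 18, which is 0.333% (0.223 to 0.478) and 0.170% (0.101 to 0.269) of cells, and a further 50 and 34 cells had 3 or 4. This split was chosen after the data were seen, and Zfp42 itself is not a result in it. Median depth was 8787 and 9366 UMIs in these cells and 10428 and 8538 in cells with no Zfp42 UMI. Of them 27 and 17 had no T, Eomes or Irx3 UMI after thinning, 1 and 0 were scored as doublets, and 8 and 8 were among the cells with several naive markers.

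In cells with at least 5 Zfp42 UMIs Esrrb, Nr0b1 and Tfcp2l1 were many times their level in cells with no Zfp42 UMI. Esrrb was at 40.3 (20.8 to 70.3) and 76.9 (39.8 to 134.4) CPM, from 12 UMIs in 9 cells and 12 in 8, against 0.316 and 0.347 in cells with no Zfp42 UMI. These cells held 0.307% and 0.160% of all UMIs and 20.7% and 21.8% of all Esrrb UMIs. Nr0b1 was at 40.3 and 64.1 against 0.668 and 0.671, from 12 and 10 UMIs in 6 cells each. Tfcp2l1 was at 67.1 and 64.1 against 6.33 and 6.22, differences of 3.44 (2.68 to 4.05) and 3.43 (2.30 to 4.26). One of the 3 Prdm14 UMIs of the study lay in such a cell.

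Esrrb, Nr0b1 and Tfcp2l1 were thus the 3 of 8 members with at least 50 UMIs that were higher by 3 on the log2 scale in both libraries with intervals above 0, where 0.654% of 14834 such genes were. The limit of 3 was used for this split alone, which was chosen after the data were seen. It falls between the values of Tfcp2l1 and those of Utf1, so the count of 3 members is a description only. Utf1 was at 224.8 (174.2 to 285.5) against 37.3 in the first library, from 67 UMIs, and had 39 UMIs (177.8 to 341.8 CPM) against 50.8 in the second, differences of 2.60 (2.22 to 2.94) and 2.32 (1.80 to 2.75). At a fold of 0.5 with intervals that leave out 0 in both libraries, 2 of 6 members with a mean of at least 1 CPM, Utf1 and Tfcp2l1, were higher and 0 lower, where 2.48% of 12405 genes were higher and 1.89% lower and the median over them was 0.03 and 0.15. The intervals of Pou5f1, Nanog and Sall4 held 0 in both libraries: Pou5f1 was at 664.4 and 705.2 against 654.4 and 677.2, Nanog at 90.6 and 115.4 against 114.9 and 128.2, and Sall4 at 137.6 and 121.8 against 137.3 and 143.4.

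**Figure D3:**
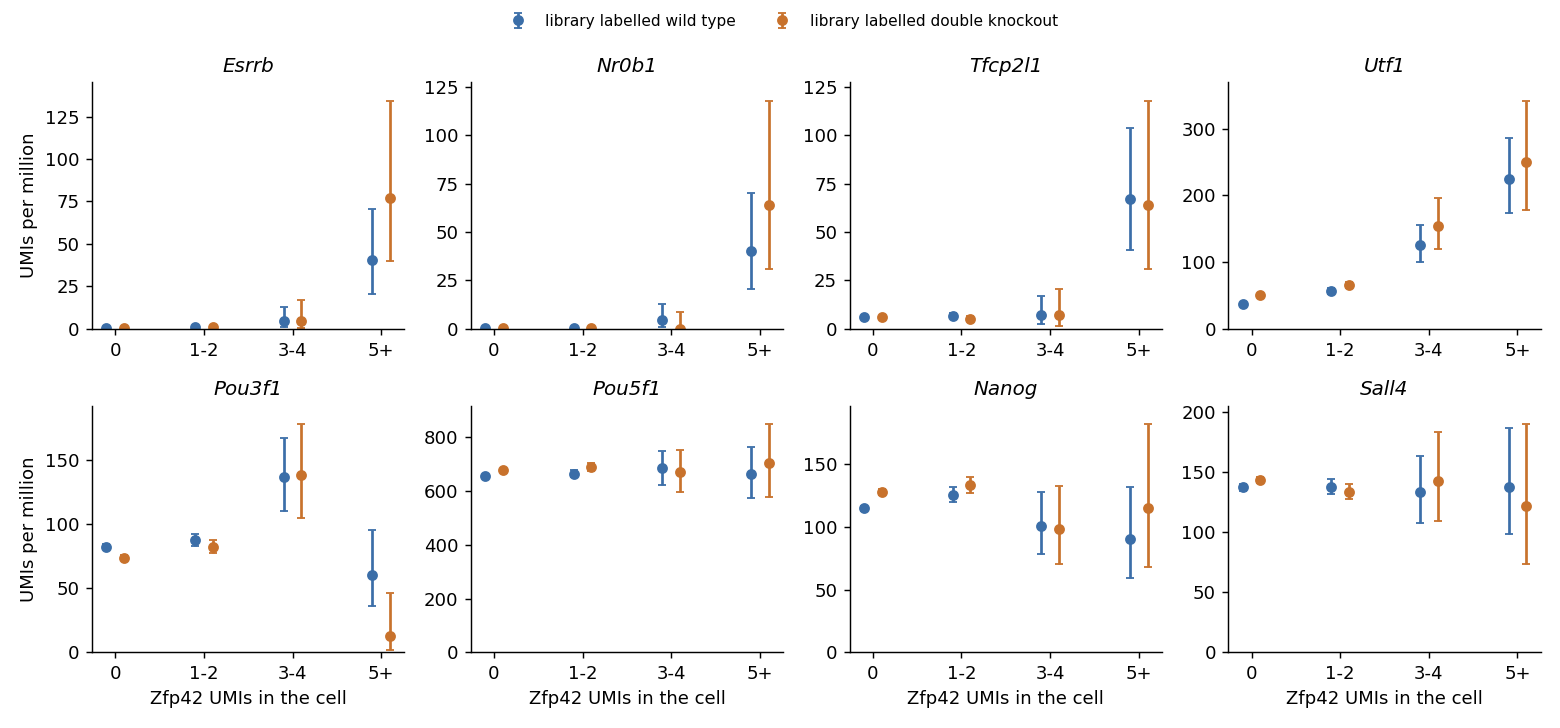
CPM of 8 members in cells grouped by their number of Zfp42 UMIs (0, 1 to 2, 3 to 4, and 5 or more), in each library. Bars are 95% counting intervals; Esrrb, Nr0b1 and Tfcp2l1 are highest in the last group, and Utf1 is higher in each later group.

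Utf1 was graded over the classes and Pou3f1 was not. With 0, 1 to 2, 3 to 4 and at least 5 Zfp42 UMIs, Utf1 was at 37.3, 56.7, 126.1 and 224.8 CPM in the first library and at 50.8, 65.9 and 154.4 in the second below 5 UMIs, with an interval of 177.8 to 341.8 at 5 or more. Pou3f1 was at 82.3, 87.4, 136.4 and 60.4 in the first and at 73.8, 82.3, 138.0 and 12.8 in the second. The differences of Pou3f1 from cells with none were 0.74 (0.42 to 1.02) and 0.91 (0.51 to 1.27) with 3 or 4 UMIs, and -0.41 (-1.20 to 0.21) and -2.20 (-5.57 to -0.67) with at least 5, the last from 18 and 2 UMIs. Cells with 3 or 4 Zfp42 UMIs had median depths of 12862 and 11378, and 5 and 8 of them were scored as doublets. The part of depth and doublets in the Pou3f1 values was not tested.

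Genes of the same circuit were counted in the cells with at least 5 Zfp42 UMIs by the rule of 0.5 and intervals without 0. Of 15 LIF and naive genes 8 were higher and 0 lower. Gbx2 was not counted as lower by the rule, but it was at 0 CPM in these cells of both libraries (log2 -3.96 and -2.57). Klf2 was at 617.5 and 788.6 CPM against 29.4 and 17.0, Dppa5a, an RNA-binding protein of early embryos, at 2235 and 2122 against 104.7 and 111.9, and Dppa3 at 117.5 and 185.9 against 0.765 and 1.71. Of 11 core partners 7 were higher and 1 (Lin28a, an RNA-binding protein that blocks let-7) lower; Sox2 was at 288.6 and 352.6 against 32.4 and 24.2. Of 9 formative and primed genes 0 were higher and 4 lower. Dnmt3b, a de novo DNA methyltransferase, was at 359.1 and 262.9 against 707.9 and 756.7, and Fgf5 had 2 and 0 UMIs, 6.71 CPM in the first library against 61.2 and 90.2 in cells with none.

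Of 6 measured primitive streak genes 0 were higher and 3 lower by the same rule, and of 3 measured extraembryonic endoderm genes 0 were higher and 0 lower. The 8 extraembryonic endoderm genes summed to 0 and 6.41 CPM against 11.9 and 10.4, with Gata6, Gata4 and Sox17 at 0, which is too few UMIs to read a difference. The 5 genes of the 2-cell-like state summed to 0 and 0, and the 7 of the primitive streak to 134.2 and 57.7 against 287.5 and 482.4. The 5 germ cell genes summed to 83.9 and 121.8 against 23.8 and 26.3, and 1 of 3 measured, Tfap2c, a factor that naive and germ cells share, was higher by the rule.

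Nanog lies on chromosome 6 (chr6:122707489-122714633, plus strand, in the GENCODE M21 annotation of GRCm38), and the share of UMIs from that chromosome varied between cells. Among cells with at least 4000 UMIs, 1834 of 8449 (21.7%, 20.8 to 22.6) and 1869 of 10229 (18.3%, 17.5 to 19.0) had a chromosome 6 share at or below 0.8 times the library median, counted without the members. On each of the chromosomes of the other members at most 2.92% of cells in either library were that low. Nanog was at 93.9 (89.6 to 98.4) CPM in the low cells and 121.7 (119.3 to 124.2) in the other cells of the first library, and at 99.7 and 134.5 in the second, differences of -0.37 (-0.45 to -0.30) and -0.43 (-0.51 to -0.36). The median over 376 genes of chromosome 6 was -0.49 and -0.54, and that over 7210 genes elsewhere 0.02 and 0.00. Nanog stood at the 78.7th and 76.9th percentile of the chromosome 6 genes.

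Other members differed in the same cells, in both directions. Pou5f1 was at 792.1 against 621.5 and 749.1 against 662.5 CPM (0.35 and 0.18), Sall4 at 0.19 and 0.20, and Zfp42 at -0.40 (-0.60 to -0.22) and -0.68 (-0.91 to -0.47). T was found in 12.8% of low cells against 6.73% of others in the first library and in 11.5% against 10.6% in the second. In cells called negative for T, Eomes and Irx3 the Nanog difference was -0.47 and -0.52. Of the genes beside Nanog, Gdf3, a ligand of the TGF-beta family, was at -0.69 and -1.22 and Slc2a3, a glucose transporter, at -0.55 and -0.33. Dppa3 was at -2.25 and -0.95, and Foxj2, a forkhead factor, at 0.11 and -0.13. What lowers the chromosome 6 share in these cells was not tested.

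**Figure D4:**
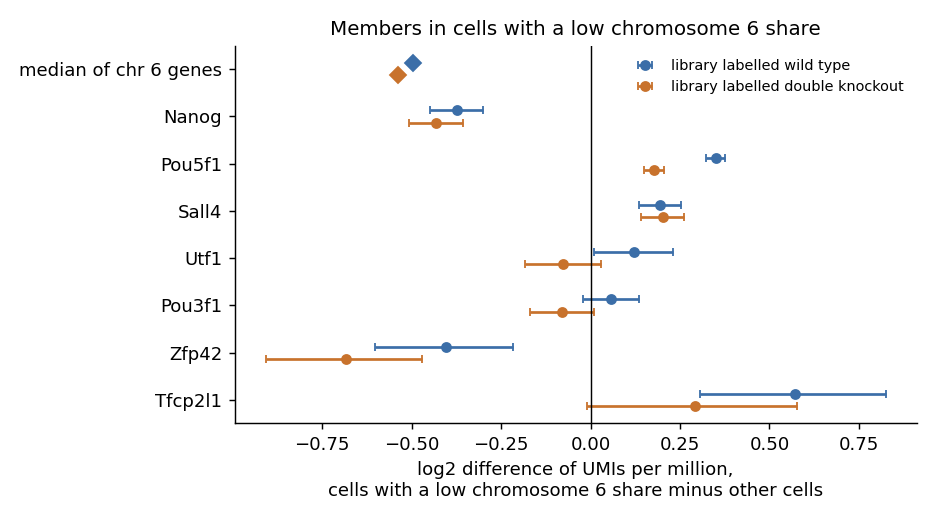
Log2 difference of CPM between cells with a low chromosome 6 share and other cells, for 7 members and, as diamonds, the median of 376 chromosome 6 genes. Bars are 95% counting intervals. Nanog, at -0.37 and -0.43, is lowered by less than that median, which is at -0.49 and -0.54. Zfp42, on chromosome 8, is lower too.

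The genes most correlated with each member were ranked by Pearson correlation of log2(CPM + 1) over 12 cell states of the 2 libraries. There were 6 states from the same cells of each library, so the values are descriptions. For every member the states include the cells with several naive markers. Ranges on the log2 scale could differ: Chchd4 spanned 0.34 against 3.71 for Zfp42, Wdfy1 0.48 against 1.89 for Tfcp2l1, and Fst 1.16 against 0.56 for Pou5f1. For Nanog these were Pmepa1 (0.97), Ppp4r4 (0.96) and Cda (0.96), and for Pou5f1 Fst (0.99), Kmt5a (0.98) and Sipa1l2 (0.98). For Zfp42 they were Dppa5a (0.98), Chchd4 (0.98) and Tdh (0.98), over a Zfp42 range of 3.71 on the log2 scale that includes the cells with several naive markers, which Tdh helped to choose. For Utf1 they were Capg (0.97), Mt1 (0.94) and Zfp979 (0.94), for Pou3f1 Armcx1 (0.92), Rb1 (0.92) and Gpsm1 (0.91), for Tfcp2l1 Cdc42bpb (0.95), Wdfy1 (0.94) and Rlim (0.93), and for Sall4 they included Dctn5 (0.94) and Atp5h (0.91).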

How the data were processed

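Deposited values were raw UMI counts per gene and barcode, with no cell filter. Per the labels' protocols, 10x 3′ v3.1 libraries were counted with Cell Ranger 8.0.1; the submitters' processing notes name STARsolo, STAR 2.7.9a, Seurat 5.1.0 and mm10. How the authors treated strand is not given in the sources used here. Whether reads of annotated antisense genes entered the counts of Pou5f1, Sall4, Tfcp2l1 and Pou3f1 was not checked. How reads shared with pseudogene copies were counted is not given either.

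Barcodes with at least 2500 UMIs, at least 1000 genes and at most 10% mitochondrial UMIs were kept. This removed 1 and 0 barcodes for few genes and 64 and 26 for mitochondrial share. Counts were summed over cells, scaled to the library or class total, and compared as log2 ratios with a pseudocount of 0.5; intervals are exact Poisson, conditional or Clopper-Pearson at 95% and cover counting error only, and no test was made. A gene counts as past the fold at 0.25 between libraries, and at 0.5 with 1 sign in both libraries between cell classes. For cells with at least 5 Zfp42 UMIs, where sums are small, the interval also had to leave out 0. A second limit of 3 on the log2 scale, among genes with at least 50 UMIs, was used for these cells alone. All 10 members were named, with up to 3 genes per list by largest ratio among those with a mean of at least 10 CPM and 3 most correlated genes per member (1 of these is not reported here); Mesp1, Tfap2c and genes named from lists in the Zfp42 cells and beside Nanog were chosen after their values were seen. Members and lists were chosen with earlier results of these data known. Doublets were scored against simulated pairs and kept, with removal (606 and 897 cells) as an alternative. The ratio was tested on simulated data. Python 3.11.15, scipy 1.17.1 and edgeR 4.0.16 (for TMM factors) were used.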

Additional observations from a re-analysis of the deposited data

How the results depend on the processing

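No member counted past the fold at the main settings was counted past it with the opposite sign under an alternative. Some values inside the fold did change sign. Tfcp2l1 in Irx3-positive cells of the library labelled double knockout went from -0.13 to 0.83 with a minimum of 2 marker UMIs. Between libraries, TMM moved all ratios by 0.03 and median-of-ratios by 0.02. With cells thinned to 2500 UMIs 1 member, Tfcp2l1 (-0.34), was lower past 0.25, against 0 with all UMIs; in cells of 6000 to 12000 UMIs, an alternative chosen after seeing the data, 1 (Pou3f1) was lower and 0 higher. The Utf1 ratio was 0.22 in the cells of 6000 to 12000 UMIs, and over all other alternatives, thinning included, it ran from 0.33 to 0.43. A minimum of 2 marker UMIs gave 2 members higher (Nanog, Tfcp2l1) and 2 lower (Utf1, Pou3f1) in T-positive cells, 2 lower in Eomes-positive (Zfp42, Pou3f1) and 2 lower in Irx3-positive cells (Zfp42, Utf1); cells positive for 1 marker only gave 0 lower for T and 2 lower for Irx3. For cells with several naive markers, 5 members (Esrrb and Nr0b1 counted too) were higher at the limit used, 3 (Esrrb, Nr0b1, Zfp42) with 1 marker fewer, and 3 (Pou5f1, Nanog, Pou3f1) lower with 1 marker more, which leaves 4 cells a library. For cells with at least 5 Zfp42 UMIs, 4 members (Esrrb and Nr0b1 counted too) were higher and 0 lower under each of the 4 alternatives, all chosen after seeing the data. No share of all genes is given for the alternative settings of this paragraph. The counts of members under them therefore have no background and show only how the calls moved. In cells called negative for T, Eomes and Irx3, Nanog on low chromosome 6 was at -0.47 and -0.52. Of genes with at least 10 CPM, 0 LIF and naive genes were higher and 2 lower. Of the core partners with at least 10 CPM, 1 was lower, while L1td1 (0.38) and Etv5 (0.37) were still higher. No paired analysis was possible because each genotype had 1 library. Leaving out a replicate was not possible either. The cause of these changes was not tested. Depth limits Esrrb, Nr0b1 and Prdm14, whose intervals or counts do not resolve a difference between libraries, and the Zfp42-rich cells, whose 29 and 18 cells give wide intervals.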

Other observations

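Chromosome 11, which holds no member, also had a low share in part of the cells, 1511 of 8449 (17.9%) and 600 of 10229 (5.87%) by the same limit of 0.8 times the library median. On chromosome 8, which holds Zfp42, 247 (2.92%) and 35 (0.342%) cells were that low. With cells low on chromosomes 6 or 11 left out, the log2 ratio between libraries was 0.43 for Utf1, 0.14 for Nanog and -0.11 for Pou3f1.

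Among cells with at least 5 Zfp42 UMIs, Esrrb was found in 31.0% and 44.4%, Nr0b1 in 20.7% and 33.3%, and Tfcp2l1 in 48.3% and 33.3%, with all UMIs of the cell; Klf2 was found in 28 of 29 and 18 of 18. In all other cells these shares were 0.495% and 0.407%, 0.737% and 0.605%, 6.70% and 5.35%, and, for Klf2, 20.8% and 11.5%. Pou3f1 was found in 24.1% and 5.56% of the Zfp42 cells and in 48.7% and 40.9% of the others.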
